A study of Mus musculus with 12 samples.

Results

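The genes described here are 50 genes of the interferon response, measured in hepatocyte RNA of mice injected with adeno-associated virus (AAV). The rule lists them by symbol, as known interferon-induced genes and regulators of that response. It sets no criterion on differences between arrays or groups, but the list was drawn up with earlier results of these data known. Shares of these genes set beside those of all genes are therefore a description. A gene entered with a probe whose detection p-value was at most 0.05 on at least 1 array, and its brightest probe by mean log2 signal over all 12 arrays stood for it. This left 42 of the 50 genes, out of 10838 named genes measured in the same way. *Ifit1*, *Ifit2*, *Oas1a*, *Oas2*, *Mx1*, *Ifi44*, *Xaf1* and *Gbp6* had no such probe and were not analysed here.

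Every mouse carried floxed alleles of both *Gata4* and *Gata6*, of a C57BL/6 x 129Sv background, and was 2.5 to 4.5 months old. The 6 samples labelled AAV-Cre came from mice given AAV8-Tbg-Cre into a vein 2 weeks before harvest, and the 6 samples labelled AAV-GFP from mice given AAV8-Tbg-GFP. The Tbg promoter is active in hepatocytes, Cre excises the floxed alleles there, and the hepatocytes were purified on a Percoll gradient. The sources used here do not state that each sample was a separate animal, so p-values measure the spread between these samples, which may be technical. All samples came from virus-injected mice, so the comparison sets a Cre virus against a GFP virus, and an effect of the injection itself cannot be read from it.

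Interferons are secreted proteins that warn cells of infection. Type I interferons act through receptor-bound kinases on a complex that contains IRF9 and binds the interferon-stimulated response element, whereas interferon gamma acts through the gamma-activated sequence. Genes induced in this way encode sensors of viral nucleic acid, antiviral effectors, GTPases that act on membranes around microbes, the machinery that loads peptides on MHC class I, and chemokines. In the liver, both hepatocytes and the resident macrophages (Kupffer cells) can respond to interferons.

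The arrays were Illumina MouseWG-6 v2 BeadChips. Each detected 31.6% to 36.2% of its probes, and array pairs correlated at r between 0.966 and 0.989 across kept probes, which are not independent replicates. With 6 arrays in a group, precision was limited by their number. The *Gata4* probe was detected on 1 array only, and the *Gata6* probe that was detected on all arrays was higher in the group labelled AAV-Cre, with a lowest, median and highest log2 signal of 10.94, 11.63 and 12.06 on arrays labelled AAV-Cre against 9.47, 9.94 and 10.08 on AAV-GFP arrays (difference 1.71, limma adjusted p = 0.000377). Where on the transcript this probe lies relative to the excised part is not stated in the sources, so the excision could not be checked from it. A second *Gata6* probe, detected on 4 arrays, had a difference of 0.26 (limma adjusted p = 0.800). The groups are called by their labels. One array, AAV-Cre 3, stood apart in sex-linked genes: *Xist*, the RNA of the inactive X chromosome, had a log2 signal of 13.31 there and at most 7.95 elsewhere. The Y-linked genes *Eif2s3y*, *Kdm5d* and *Uty* were at 7.75, 7.98 and 7.92 there, against at least 11.53, 8.61 and 8.23 elsewhere. By these genes AAV-Cre 3 was female and the others male, though the labels give no sex. Sex and other traits of AAV-Cre 3 cannot be told apart.

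Much of the variation described below lay in 1 array, and among the genes with the highest signal on it were the immunity-related and guanylate-binding GTPases. Their promoters are shown because these genes were all highest on that array, with those of *Irf1*, *Isg15* and *Ifit3* as a transcription factor and a pair of antiviral effectors. The sequences are RefSeq's, from assembly GRCm38.p6, cover stretches of the 250 bases before the annotated transcription start, and read 5′ to 3′ on the gene's own strand. Capitals mark matches to the core of the interferon-stimulated response element, searched as GAAA, any 2 bases and GAAA or its reverse complement TTTC, any 2 bases and TTTC, and to TTCNNNGAA, the core of the gamma-activated sequence. In *Igtp* and *Irgm2* the first capital run matches TTCNNNGAA and the next the response element core, in *Irf1* the run matches TTCNNNGAA, and in the others all runs match the response element core.
Igtp, chr11:58199466-58199555, plus strand: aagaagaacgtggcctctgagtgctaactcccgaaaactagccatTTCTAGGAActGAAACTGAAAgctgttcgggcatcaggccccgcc
Irgm2, chr11:58214887-58214976, plus strand: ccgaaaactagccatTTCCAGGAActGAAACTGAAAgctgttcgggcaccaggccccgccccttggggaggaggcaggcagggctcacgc
Irgm1, chr11:48871421-48871510, minus strand: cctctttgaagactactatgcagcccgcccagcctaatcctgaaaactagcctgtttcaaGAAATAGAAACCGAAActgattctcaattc
Gbp2, chr3:142620573-142620662, plus strand: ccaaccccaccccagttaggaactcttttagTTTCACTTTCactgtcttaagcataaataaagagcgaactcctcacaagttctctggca
Gbp3, chr3:142559954-142560043, plus strand: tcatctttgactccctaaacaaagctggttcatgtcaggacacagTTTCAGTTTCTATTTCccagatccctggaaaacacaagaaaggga
Irf1, chr11:53769894-53770013, plus strand: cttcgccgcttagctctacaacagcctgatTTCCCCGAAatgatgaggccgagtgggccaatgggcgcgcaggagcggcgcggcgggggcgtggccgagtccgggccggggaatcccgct
Isg15, chr4:156200819-156200908, minus strand: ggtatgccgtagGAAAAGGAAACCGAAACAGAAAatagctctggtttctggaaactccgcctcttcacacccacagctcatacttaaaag
Ifit3, chr19:34583359-34583528, plus strand: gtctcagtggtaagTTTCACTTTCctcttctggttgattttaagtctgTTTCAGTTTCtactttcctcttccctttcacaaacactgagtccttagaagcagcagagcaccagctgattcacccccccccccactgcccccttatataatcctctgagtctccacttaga

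The promoter table held 37 of the 50 genes. The response element core, on either strand, stood in 15 of these 37 promoters (40.5%), against 3.46% of all 27025 promoters of the table. TTCNNNGAA, which reads the same on both strands, stood in 10 (27%), against 8.13% of all promoters. Among the roles, the response element core was present in 6 of 6 promoters of the GTPases, 7 of 17 of the antiviral effectors, 1 of 5 of the signalling genes, 1 of 2 of the chemokines, 0 of 3 of the sensors and 0 of 4 of the antigen processing genes. A match describes the letters in this window and is not a site that was shown to be bound. *Psmb9* and *Tap1*, which are neighbours read from opposite strands, share 275 bases of the full windows of the table, which also reach past the start.

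No interferon gene differed between the groups by the test across all probes. Of the 42 genes, 0 had a limma adjusted p under 0.05, against 0.212% of all genes, and 0 had one under 0.25, against 0.747% of all genes. An unadjusted p under 0.05 was reached by 1 gene (2.38%), against 6.03% of all genes, and in 0 genes did the groups not overlap, against 0.655% of all genes. The difference, AAV-Cre minus AAV-GFP on the log2 scale, was above 0 for 21 genes and below 0 for 21, with a median of -0.00075 and a range of -0.29 to 0.68, while 50.3% of all genes lay above 0.

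The arrays themselves differed far more than the groups. The array labelled AAV-Cre 1 had the highest signal of all 12 arrays for 36 of the 42 genes (85.7%), against 8.52% of all genes. *Ifih1*, *Iigp1* and *Cxcl10* were detected on AAV-Cre 1 alone, so for them the filter itself favoured that array. Among members detected on at least 6 arrays, AAV-Cre 1 was highest for 30 of 36. It lay at least 0.5 log2 units above every other array for 21 genes (50%), against 0.572% of all genes, and at least 1 log2 unit above every other array for 7 genes (16.7%), against 0.175% of all genes. These 7 were *Igtp*, *Irgm2*, *Psmb9*, *Gbp3*, *Gbp2*, *Tap1* and *Irf9*. On no other array did any of the 42 genes stand 1 log2 unit above all the rest. This array was singled out by its values, so the counts are a description and carry no test.

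**Figure D1:**
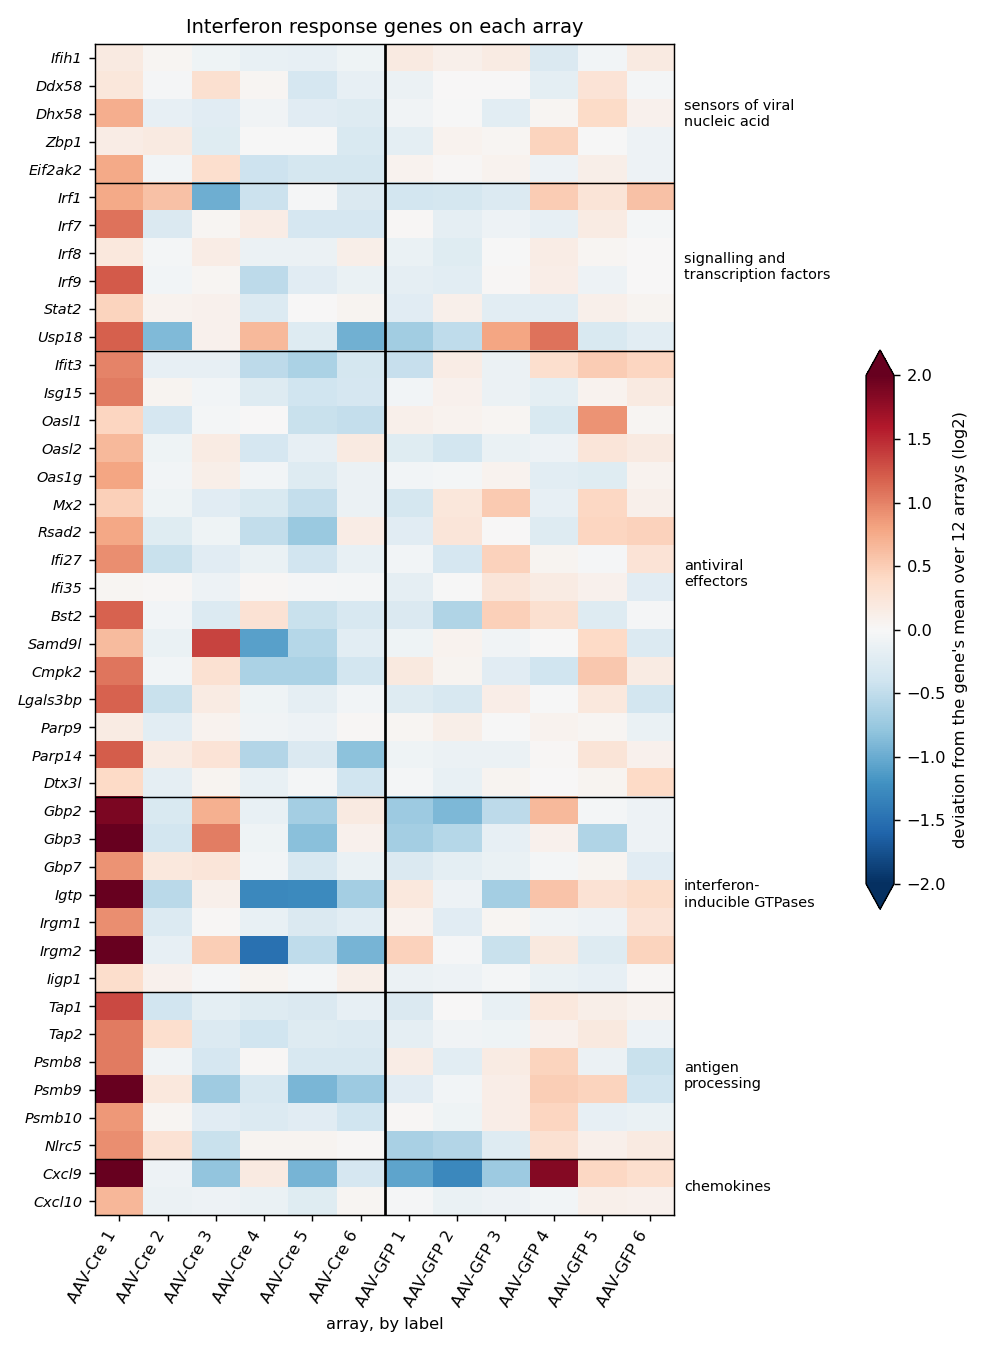
Deviation of each of the 42 interferon genes from its own mean over 12 arrays (colour, log2), with arrays labelled AAV-Cre left of AAV-GFP arrays and genes grouped by role. The column of AAV-Cre 1 holds the highest value of the row for 36 genes.

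To set the arrays side by side, the level of an array was taken as the median, over the genes, of the deviation from each gene's mean over 12 arrays. The level of AAV-Cre 1 was 0.91. Those of AAV-Cre 2 to 6 lay between -0.29 and -0.0044, and those of the 6 AAV-GFP arrays between -0.13 and 0.10. The range within the group was thus 1.20 for AAV-Cre and 0.23 for AAV-GFP. Among AAV-Cre 2 to 6 it was 0.29, and it was 0.32 with AAV-Cre 1 left out of the normalization and filter as well (39 genes). By role, the level of AAV-Cre 1 was 1.88 for the GTPases, 1.55 for the chemokines, 1.04 for antigen processing, 0.92 for signalling and transcription factors, 0.78 for the antiviral effectors and 0.23 for the sensors. The chemokine level is the median of 2 genes. *Cxcl10* among them, *Iigp1* among the GTPases and *Ifih1* among the sensors passed the filter through AAV-Cre 1 alone, which favours that array. Over the 36 genes detected on at least 6 arrays, the level of AAV-Cre 1 was 0.96.

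**Figure D2:**
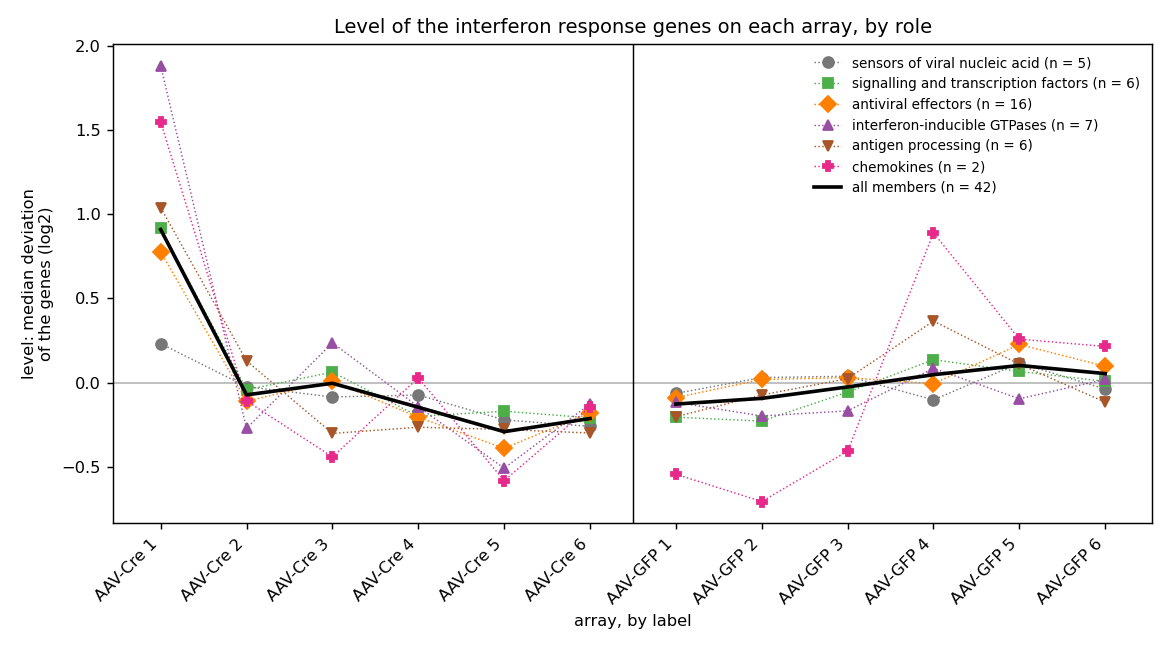
Level of each array (median deviation of the genes, log2) for all interferon genes and for each role, with arrays labelled AAV-Cre left of AAV-GFP arrays. AAV-Cre 1 is at 0.91 over all 42 genes and at 1.88 for the GTPases, and the other 11 arrays lie between -0.29 and 0.10 over all genes.

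The GTPases showed the widest spread. These proteins are recruited to membranes around intracellular microbes, and 7 of the 8 listed were measured, all with their highest signal on AAV-Cre 1. The median excess of that array over the median of the other 11 arrays was 2.03 log2 units, against 1.02 for all 42 genes and -0.01 for all genes measured. *Igtp*, a member of the immunity-related GTPase family, had a lowest, median and highest log2 signal of 10.55, 11.22 and 14.86 on arrays labelled AAV-Cre against 11.15, 12.07 and 12.41 on AAV-GFP arrays. The signal on AAV-Cre 1 was 8.79-fold the median of the other arrays and 5.47-fold that of the next array, AAV-GFP 4. Apart from AAV-Cre 1, arrays of both groups overlapped. The group difference was -0.22 ± 0.59 (limma SE, n = 6 each, 95% confidence interval -1.49 to 1.06, exact two-sided permutation p = 0.831).

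*Irgm2*, of the same family, gave 10.16, 11.32 and 13.86 as the lowest, median and highest log2 signal on arrays labelled AAV-Cre, against 11.22, 11.74 and 12.12 on AAV-GFP arrays. AAV-Cre 1 was 3.30-fold above the next array, AAV-Cre 3, and the arrays labelled AAV-Cre held both the highest and the lowest value (difference -0.13 ± 0.48, exact permutation p = 0.846). *Irgm1*, which regulates the other members of the family, varied less: 13.81, 13.92 and 15.02 on arrays labelled AAV-Cre against 13.87, 14.08 and 14.37 on AAV-GFP arrays. Its groups overlapped throughout apart from AAV-Cre 1, and its difference was 0.01 ± 0.18 (exact permutation p = 0.987).

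Guanylate-binding proteins coat pathogen-containing vacuoles, and their genes had high values on a second array as well. *Gbp3* had a lowest, median and highest log2 signal of 8.26, 9.11 and 11.32 on arrays labelled AAV-Cre against 8.43, 8.73 and 9.19 on AAV-GFP arrays. AAV-Cre 1 and AAV-Cre 3, at 10.12, lay above every AAV-GFP array, while the lowest signal of all was also on an array labelled AAV-Cre. *Gbp2* was also highest on these arrays, with 8.35, 9.04 and 10.92 against 8.14, 8.72 and 9.69 on AAV-GFP arrays, and 9.75 on AAV-Cre 3. *Gbp7* ranged from 8.33 to 9.55, with a median of 8.74, on arrays labelled AAV-Cre and from 8.36 to 8.71, with a median of 8.49, on AAV-GFP arrays. The differences of 0.68 ± 0.41 for *Gbp3*, 0.54 ± 0.38 for *Gbp2* and 0.28 ± 0.16 for *Gbp7* were the highest among the GTPases, and their exact permutation p-values were 0.197, 0.260 and 0.143 (n = 6 each). Without AAV-Cre 1 the differences were 0.30, 0.22 and 0.13. Members of these families resemble each other in sequence, and whether their probes hybridise to each other's transcripts was not tested.

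*Iigp1*, another immunity-related GTPase, had the lowest p of all 42 genes, at a signal near background. It was detected on AAV-Cre 1 only, with a lowest, median and highest log2 signal of 8.04, 8.15 and 8.43 on arrays labelled AAV-Cre against 7.93, 7.97 and 8.10 on AAV-GFP arrays. Because no AAV-GFP array detected it, no fold is given (limma unadjusted p = 0.0266, adjusted p = 0.838, exact permutation p = 0.011). *Iigp1* passed the filter only through AAV-Cre 1, so no group difference is drawn from these p-values.

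**Figure D3:**
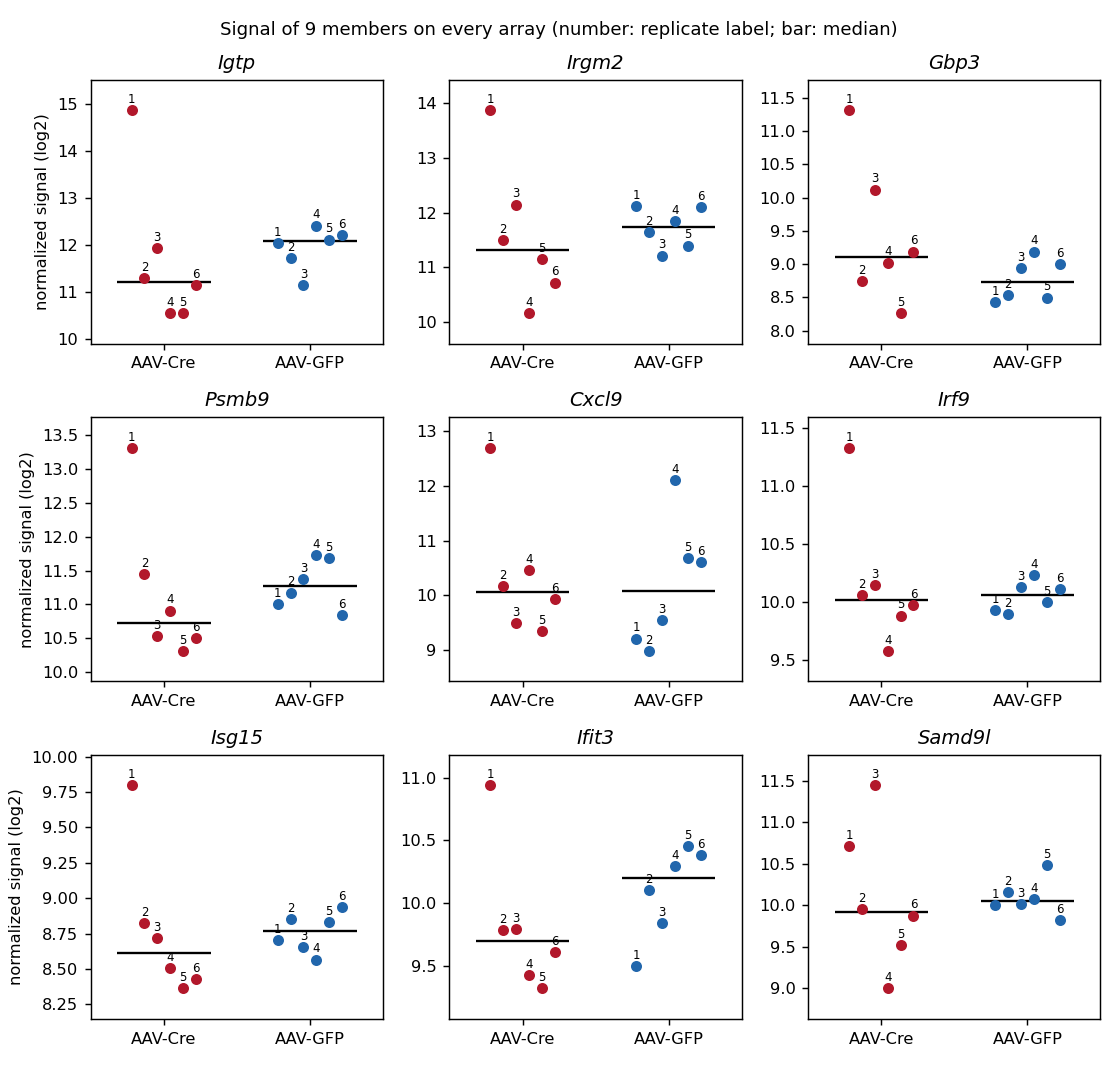
Normalized log2 signal of 9 interferon genes on each array, with arrays labelled AAV-Cre left of AAV-GFP arrays, the replicate number at each point and a bar at the group median. AAV-Cre 1 is the top point in every panel but that of *Samd9l*, where AAV-Cre 3 is the top point at 11.45.

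All 6 antigen processing genes were measured, and all had their highest signal on AAV-Cre 1. *Psmb9*, a catalytic subunit of the immunoproteasome, which cuts proteins into peptides for presentation, had 10.31, 10.72 and 13.31 as the lowest, median and highest log2 signal on arrays labelled AAV-Cre against 10.84, 11.27 and 11.73 on AAV-GFP arrays. AAV-Cre 1 was 2.99-fold above the next array, and 4 of the 6 arrays labelled AAV-Cre lay at or below 10.91, near the lowest AAV-GFP array. *Psmb8* and *Psmb10*, the other inducible subunits, ran from 9.02 to 10.38 and from 11.36 to 12.64 on arrays labelled AAV-Cre, against 8.91 to 9.79 and 11.60 to 12.19 on AAV-GFP arrays. Both groups overlapped for both genes. *Tap1*, which with *Tap2* forms the transporter that carries peptides into the endoplasmic reticulum, had 8.40, 8.55 and 10.10 against 8.48, 8.82 and 8.99 on AAV-GFP arrays.

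For *Tap1* and *Psmb9* the medians lay lower in the group labelled AAV-Cre while the single highest array was in it. *Tap2* ran from 10.74 to 12.19 on arrays labelled AAV-Cre and from 10.97 to 11.34 on AAV-GFP arrays. *Nlrc5*, the transactivator of MHC class I genes, ran from 8.33 to 9.70 and from 8.14 to 9.09. The 6 differences ran from -0.13 to 0.30 with a median of 0.01, and the exact permutation p-values of *Psmb9*, *Psmb8*, *Psmb10* and *Tap1* were 0.835, 0.976, 0.775 and 0.994.

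The 6 signalling genes were all measured and all peaked on AAV-Cre 1, with a median group difference of 0.09. *Irf9*, the DNA-binding subunit of the type I interferon complex, had 9.58, 10.02 and 11.33 as the lowest, median and highest log2 signal on arrays labelled AAV-Cre against 9.90, 10.06 and 10.23 on AAV-GFP arrays. AAV-Cre 1 was 2.14-fold above the next array, and the rest of both groups overlapped (difference 0.11 ± 0.22, exact permutation p = 0.853). *Irf7*, the factor that amplifies type I interferon transcription, had 8.40, 8.61 and 9.81 against 8.55, 8.66 and 8.90 on AAV-GFP arrays, and its difference was 0.10 ± 0.20 (exact permutation p = 0.816). AAV-Cre 1 was again apart from the other arrays.

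*Irf1* and *Usp18* varied among many arrays and not only on AAV-Cre 1. *Irf1*, a transcription factor induced by interferon gamma through the gamma-activated sequence, had 10.48, 11.30 and 12.21 on arrays labelled AAV-Cre against 11.09, 11.44 and 12.04 on AAV-GFP arrays, and AAV-Cre 2 was at 12.03. *Usp18*, a protease that removes ISG15 from proteins and restrains the type I receptor, had 8.57, 9.44 and 10.72 against 8.83, 9.27 and 10.62 on AAV-GFP arrays. High arrays occurred in both groups for both genes (differences -0.12 ± 0.28 and -0.05 ± 0.40, exact permutation p = 0.682 and 0.898). *Stat2*, the partner of IRF9, ran from 9.50 to 10.22 on arrays labelled AAV-Cre and from 9.54 to 9.88 on AAV-GFP arrays. *Irf8*, a factor of myeloid cells, was detected on 2 arrays labelled AAV-Cre and on 0 AAV-GFP arrays, with a highest log2 signal of 8.27, and has only a bound in the AAV-GFP group.

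Of the 23 antiviral effectors, 16 were measured, and 12 of these had their highest signal on AAV-Cre 1. *Isg15*, a ubiquitin-like protein that is attached to other proteins, had 8.36, 8.61 and 9.80 as the lowest, median and highest log2 signal on arrays labelled AAV-Cre against 8.57, 8.77 and 8.94 on AAV-GFP arrays. *Ifit3*, which binds complexes that recognise viral RNA, had 9.32, 9.69 and 10.94 against 9.50, 10.20 and 10.46 on AAV-GFP arrays. *Ifi27*, an interferon-induced mitochondrial protein, had 12.84, 13.10 and 14.21 against 12.95, 13.30 and 13.74. For all of these, AAV-Cre 1 was the highest array and the median of the group labelled AAV-Cre was the lower of the pair, and the differences were 0.01 ± 0.20, -0.29 ± 0.25 and -0.13 ± 0.21 (exact permutation p = 0.978, 0.327 and 0.613).

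Several effectors departed from this order. *Samd9l*, which restricts viral translation, was highest on AAV-Cre 3, with 9.00, 9.91 and 11.45 on arrays labelled AAV-Cre against 9.82, 10.05 and 10.48 on AAV-GFP arrays. *Oasl1*, of the oligoadenylate synthetase-like family, was highest on AAV-GFP 5, with 8.14, 8.42 and 9.04 against 8.30, 8.66 and 9.50 on AAV-GFP arrays. *Mx2*, a dynamin-like GTPase with antiviral activity, was highest on AAV-GFP 3, with 8.71, 9.01 and 9.66 against 8.82, 9.35 and 9.70. Both groups overlapped for each of these genes, whose differences were -0.01 ± 0.32, -0.28 ± 0.19 and -0.24 ± 0.17 (exact permutation p = 0.989, 0.223 and 0.225). *Ifi35* was also highest on AAV-GFP 3, at 8.76.

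The ADP-ribosyltransferase gene *Parp14* had 9.65, 10.41 and 11.69 on arrays labelled AAV-Cre against 10.35, 10.44 and 10.72 on AAV-GFP arrays, so that the arrays labelled AAV-Cre spread on both sides of the AAV-GFP arrays (difference -0.01 ± 0.27, exact permutation p = 0.972). The remaining effectors peaked on AAV-Cre 1. *Bst2*, which tethers budding virions to the cell, reached 11.92 there and 11.22 on the highest AAV-GFP array. *Lgals3bp*, a secreted glycoprotein, reached 12.46 and 11.49, and *Rsad2* (viperin), which makes a chain-terminating nucleotide, 9.76 and 9.46. *Cmpk2*, *Oasl2*, *Oas1g*, *Parp9* and *Dtx3l* had their highest log2 signals between 8.46 and 11.02. *Oas1g* was detected on 2 arrays labelled AAV-Cre and 0 AAV-GFP arrays and is given no fold.

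The sensors of viral nucleic acid varied least, with a median excess of 0.26 log2 units on AAV-Cre 1 over the median of the other arrays and a median group difference of -0.07. *Dhx58* (LGP2), which modulates the RNA sensors, had 8.95, 9.01 and 9.94 as the lowest, median and highest log2 signal on arrays labelled AAV-Cre against 9.00, 9.22 and 9.58 on AAV-GFP arrays. AAV-Cre 1 was the highest array, by 0.35 over the next, and the difference was -0.07 ± 0.16 (exact permutation p = 0.695). *Eif2ak2* (PKR), a kinase that stops translation on double-stranded RNA, ran from 10.30 to 11.47 on arrays labelled AAV-Cre and from 10.60 to 10.83 on AAV-GFP arrays. *Ddx58* (RIG-I), a sensor of viral RNA, was highest on AAV-Cre 3 at 9.18, and *Zbp1*, a sensor of Z-form nucleic acid, on AAV-GFP 4 at 9.85. *Ifih1* (MDA5), a sensor of long double-stranded RNA, was detected on AAV-Cre 1 alone, at 8.19.

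The chemokines *Cxcl9* and *Cxcl10* attract T cells through the receptor CXCR3. *Cxcl9* had 9.35, 10.06 and 12.70 as the lowest, median and highest log2 signal on arrays labelled AAV-Cre against 8.99, 10.08 and 12.11 on AAV-GFP arrays. It was high on AAV-Cre 1 and on AAV-GFP 4, lowest on AAV-GFP 2, and its group medians were close (difference 0.16 ± 0.60, exact permutation p = 0.807). *Cxcl10* was detected on AAV-Cre 1 alone, at 8.77, against 7.86 to 8.21 on the other 11 arrays, and is given no fold.

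The spread of these genes within groups, with AAV-Cre 1 included, was large beside that of other genes. The array levels had an SD of 0.44 within AAV-Cre and 0.09 within AAV-GFP. A pooled SD of the genes without AAV-Cre 1 was not computed. The median pooled standard deviation was 0.40 log2 units over the 42 genes and 0.17 over all genes, and 26 of the 42 (61.9%) lay above the 90th percentile of all genes. Of the 32 genes detected on all arrays labelled AAV-Cre, 12 (37.5%) had 1 array beyond Dixon's 95% limit in that group, against 6.2% of all genes, and it was AAV-Cre 1, on the high side, in each of the 12, against 0.899% of all genes. In the AAV-GFP group 1 of 32 genes (3.12%) had such an array, against 5.55% of all genes, and that gene was *Oasl1* on AAV-GFP 5.

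**Figure D4:**
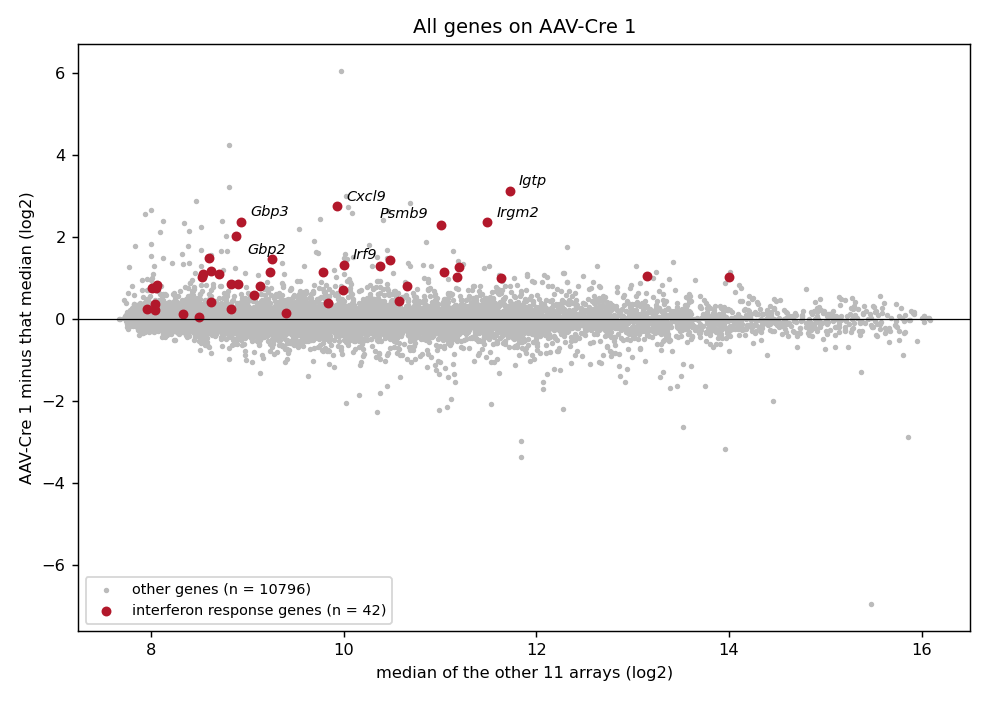
Log2 signal of AAV-Cre 1 minus the median of the other 11 arrays (vertical axis) against that median (horizontal axis), for 42 interferon genes in red and the other genes of 10838 in grey. The red points lie between 0.05 and 3.14, and *Igtp* is at 3.14.

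Among all genes, 19 lay at least 1 log2 unit above every other array on AAV-Cre 1. Beside the 7 genes above, 5 came from other lists of the interferon pathway. *Gvin1*, an interferon-inducible very large GTPase, was at 13.05 there and at most 10.35 elsewhere. *Tgtp1*, a GTPase of the immunity-related family, was at 10.66 there and was not detected on the other 11 arrays. *Apol9a*, *Ifi47* and *H2-DMa* were at 12.80, 11.73 and 9.53. One was a macrophage gene, *Mpeg1*, a pore-forming protein of phagocytes, at 12.20 against at most 10.65. The other 6 were in no list of this report and are given in the closing part. The number of genes 1 log2 unit above every other array ran from 0 to 27 on the remaining arrays and was highest on AAV-Cre 3.

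The upstream members of the pathway were read in the same way. Of 10 ligand genes, 2 were measured. *Ifna1* ran from 8.36 to 8.58 on arrays labelled AAV-Cre and from 8.51 to 8.94 on AAV-GFP arrays, and *Ifne* from 8.02 to 8.17 and from 7.90 to 8.23. Neither was highest on AAV-Cre 1. Of 11 genes for receptors and their kinases, 9 were measured and 0 were highest on AAV-Cre 1, with *Ifngr1*, a receptor chain for interferon gamma, at 8.82 to 9.27 on arrays labelled AAV-Cre and 8.87 to 9.10 on AAV-GFP arrays. Of 15 adaptors and kinases that signal from the sensors, 12 were measured and 3 were highest on AAV-Cre 1, namely *Mavs* at 12.07, *Ticam1* at 8.47 and *Unc93b1* at 10.47, against at most 12.06, 8.46 and 10.25 on the other arrays. Of 10 inhibitors, 10 were measured and 1 was highest there, *Samhd1*, at 9.51 against at most 9.42. Over all genes the share highest on AAV-Cre 1 was 8.52%.

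In the same lists and those of the next paragraph, 0 genes were higher and 0 lower at a limma adjusted p under 0.05, against 0.212% of all genes. At 0.25, 1 of 12 adaptor genes and 1 of 28 other interferon-inducible genes were higher and 0 lower, against 0.747% of all genes in either direction. *Irf5*, a transcription factor of toll-like receptor signalling, had 9.48, 9.78 and 10.20 as the lowest, median and highest log2 signal on arrays labelled AAV-Cre against 8.90, 9.13 and 9.62 on AAV-GFP arrays (difference 0.59 ± 0.14, adjusted p = 0.222, exact permutation p = 0.009). Its groups overlapped at the edge. *Ifitm2*, which blocks entry of enveloped viruses, had 12.90, 13.13 and 13.21 on arrays labelled AAV-Cre against 12.37, 12.65 and 12.82 on AAV-GFP arrays, and here the groups did not overlap. Its difference was 0.47 ± 0.09 (adjusted p = 0.060, exact permutation p = 0.00216, the smallest these 12 arrays can give). Without AAV-Cre 1 its limma adjusted p was 0.043. That array was singled out by its values and fits without other arrays are not given, so this p-value is a description only. Neither gene was highest on AAV-Cre 1.

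Genes further downstream followed AAV-Cre 1 in part. Of 44 other interferon-inducible genes, 28 were measured and 14 were highest on that array, and of 22 genes for MHC class I and peptide loading, 17 were measured and 11 were highest there, against 8.52% of all genes. *H2-D1* and *H2-K1*, the classical class I heavy chains, were at 14.40 and 13.73 on AAV-Cre 1, against at most 13.56 and 13.40 on AAV-GFP arrays. Probes of these class I genes may share sequence, which was not tested. Of 7 MHC class II genes, which are made by professional antigen-presenting cells, 6 were measured and 5 were highest on AAV-Cre 1. *H2-Ab1* had 7.85, 8.64 and 12.03 as the lowest, median and highest log2 signal on arrays labelled AAV-Cre against 8.13, 8.93 and 11.11 on AAV-GFP arrays, and was high on AAV-GFP 4 as well.

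Markers of other liver cells were read on the same arrays, since in bulk RNA fewer cells of a type and less RNA per cell cannot be told apart. Of 14 Kupffer cell and macrophage markers, 12 were measured, and all 12 lay above the median of the other arrays on AAV-Cre 1, by a median of 0.54 log2 units. Of the 11 without *C6*, which hepatocytes also express, 3 were highest on AAV-Cre 1, *Mpeg1*, *C1qc* and *Marco*. *C6* was equally high on AAV-Cre 1 and another array. The summed linear signal of the 11 ran from 3642 to 10522 on arrays labelled AAV-Cre, with AAV-Cre 1 the highest, and from 3272 to 7921 on AAV-GFP arrays, with AAV-GFP 4 the highest. *Mpeg1*, at a log2 signal of 12.20 on AAV-Cre 1, held the largest part of the sum there. By level, the 12 markers were highest on AAV-GFP 4, at 0.53, against 0.52 on AAV-Cre 1. The defining markers *Clec4f*, a Kupffer cell lectin, and *Vsig4*, a complement receptor, were at 10.08 and 10.31 on AAV-Cre 1 and highest on AAV-GFP 4, at 10.44 and 10.43. Of 17 T, NK and B cell markers, 6 were measured and 0 were detected on AAV-Cre 1, and their summed signal ran from 1389 to 1645 on arrays labelled AAV-Cre and from 1414 to 1872 on AAV-GFP arrays. Of 11 endothelial markers, 11 were measured and 0 were highest on AAV-Cre 1. Of 8 stellate cell markers, 4 were measured and 0 were highest there. *Reln*, 1 of these 4, had 9.46, 10.05 and 10.77 as the lowest, median and highest log2 signal on arrays labelled AAV-Cre. On AAV-GFP arrays it had 10.52, 10.98 and 11.22 (difference -0.88, limma adjusted p = 0.205, exact permutation p = 0.006). Of 6 bile duct markers, 2 were measured. Their summed signal ran from 1536 to 3963 on arrays labelled AAV-Cre, with AAV-Cre 1 the highest, and from 1559 to 2453 on AAV-GFP arrays. Their level was highest on AAV-Cre 5, at 0.54, against 0.50 on AAV-Cre 1. *Sox9* was at 11.84 on AAV-Cre 1 against at most 11.83 elsewhere. Of 11 immediate early genes, which respond to cell dissociation, 10 were measured. Their level was highest on AAV-Cre 1, at 0.27, with *Jun* and *Ier2* highest there. Their summed signal was highest on AAV-GFP 2, at 24956, against 24025 on AAV-Cre 1. The 6 hepatocyte markers measured summed to 96403 to 111590 and 94347 to 111729. The part of macrophage or bile duct RNA, or of dissociation, in the signal of AAV-Cre 1 was not tested.

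The other 11 arrays were not uniform, and the roles differed in where they peaked. Leaving AAV-Cre 1 aside, AAV-Cre 3 and AAV-GFP 4 were each highest for 10 of the 42 genes, AAV-GFP 5 for 8, AAV-GFP 6 for 6 and AAV-GFP 3 for 4. Shares of all genes over these 11 arrays were not computed. Over all 12 arrays, the same 5 arrays were highest for 9.20%, 9.71%, 7.38%, 12.8% and 5.47% of all genes, in that order. AAV-GFP 6 was thus the array most often highest over all genes, and these counts are a description. AAV-Cre 3 held the next-highest signal of 4 of the 7 GTPases (*Gbp2*, *Gbp3*, *Gbp7* and *Irgm2*), AAV-GFP 4 that of 5 of the 6 antigen processing genes (*Nlrc5*, *Psmb8*, *Psmb9*, *Psmb10* and *Tap1*), and AAV-GFP 5 that of 5 of the 16 effectors (*Cmpk2*, *Ifit3*, *Lgals3bp*, *Oasl1* and *Oasl2*). The level of the chemokines was 0.89 on AAV-GFP 4 and -0.71 on AAV-GFP 2. The array with the lowest signal was most often AAV-Cre 5, for 12 of the 42 genes, followed by AAV-Cre 6 for 8 and AAV-Cre 4 for 7. Over all genes these arrays were lowest for 6.57%, 9.44% and 7.35%, in that order.

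With AAV-Cre 1 left out, most group differences lay below 0. Since the array is singled out here by these same genes, the values that follow are a description. AAV-Cre 1 was highest for 36 of the 42 genes, so leaving it out lowers the AAV-Cre mean of these by construction. The shares below, set beside those of all genes, therefore carry no test. Of 39 genes that then passed the detection filter, 7 had a difference above 0 and 32 below 0, with a median of -0.18, against -0.00075 over 42 genes with all arrays. An unadjusted limma p under 0.05 was reached by 10 genes (25.6%), against 7.74% of all genes, and all 10 had a difference below 0. These were *Igtp* (-0.84), *Psmb9* (-0.56), *Ifit3* (-0.51), *Rsad2* and *Oasl1* (-0.39 each), *Mx2* (-0.36), *Ifi27* (-0.33), *Tap1* and *Psmb10* (-0.25 each) and *Dhx58* (-0.22). The smallest adjusted p was 0.429, for *Igtp*, so 0 genes passed at 0.05, against 0.251% of all genes, or at 0.25, against 1.08%. *Igtp* then had 10.55, 11.15 and 11.94 as the lowest, median and highest log2 signal on the 5 remaining arrays labelled AAV-Cre against 11.15, 12.07 and 12.41 on AAV-GFP arrays, and the groups still overlapped.

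**Figure D5:**
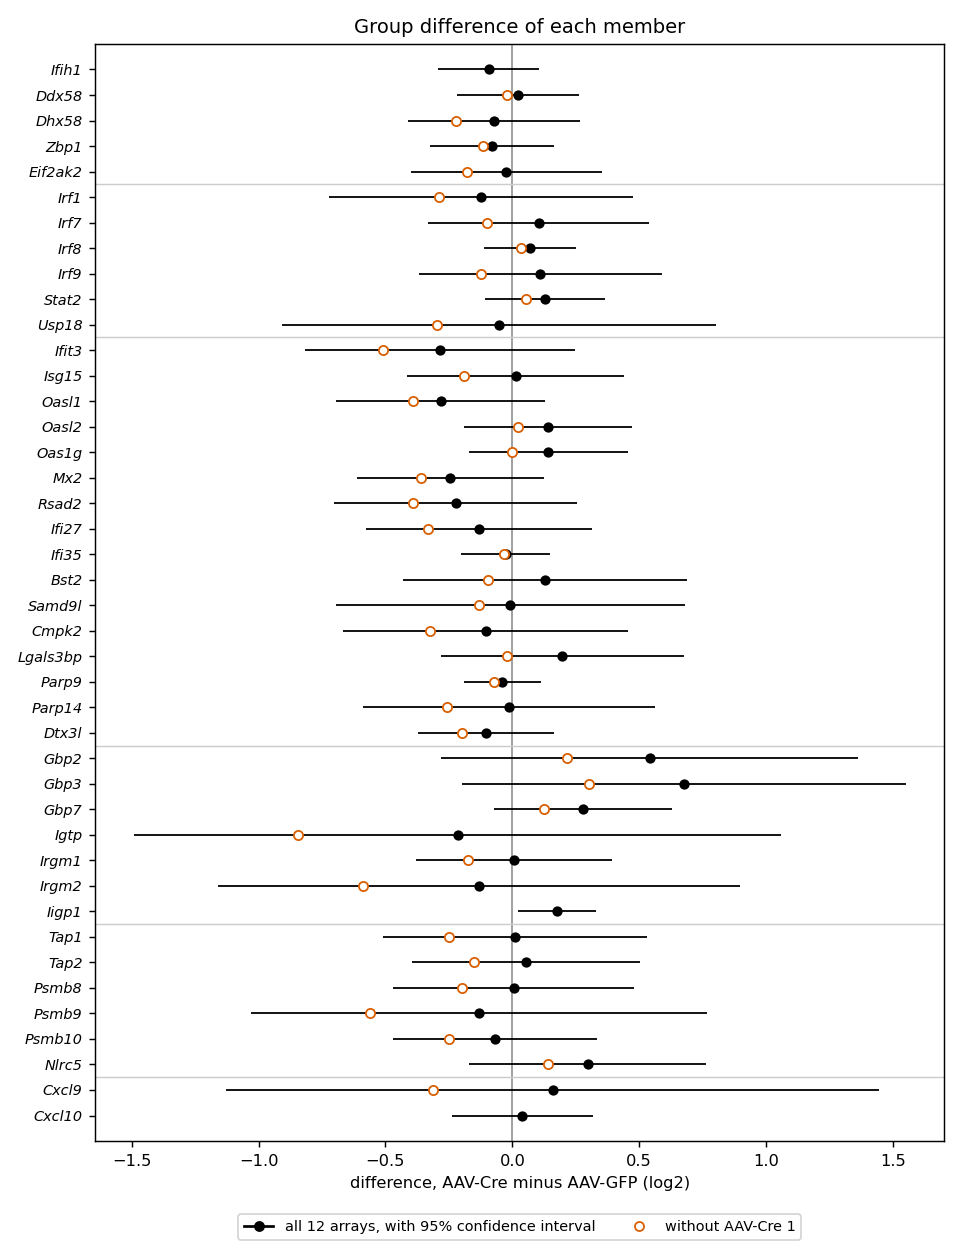
Difference of each interferon gene, AAV-Cre minus AAV-GFP (log2), with its 95% confidence interval over all 12 arrays in black and the difference without AAV-Cre 1 as an open circle. The interval of every gene but *Iigp1* spans 0, and 32 of 39 open circles lie below 0.

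Not every probe of a gene told the same. Of the 42 genes, 17 had several kept probes and 25 had 1. Among genes with several, a further probe of *Dtx3l*, *Iigp1*, *Irf1*, *Irf9*, *Oas1g*, *Parp14* and *Usp18* was not highest on AAV-Cre 1, whereas a further probe of *Oasl1*, at 8.99 there against at most 8.97, and of *Zbp1*, at 8.36 against at most 8.22, was highest on it. Detection also set a limit: 30 of the 42 genes were detected on all 12 arrays, 6 on 6 to 11 and 6 on 1 to 5, and *Ifih1*, *Irf8*, *Oas1g*, *Iigp1* and *Cxcl10* were detected on no AAV-GFP array. The signal holds each array's background, so differences of dim probes are understated.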

How the data were processed

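Hepatocyte RNA was labelled with the TargetAmp-Nano kit, after selection for high RNA integrity, and hybridised to 1 array per sample. The deposited export holds, for 45281 probes, a signal intensity on a linear scale with the background left in and a detection p-value, both made by the authors in GenomeStudio. The deposited value table of 19627 probes holds intensities that the authors quantile-normalized and filtered on detection.

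Here the exported signal was quantile-normalized between arrays, a probe was kept where its detection p was at most 0.05 on at least 1 array (20561 probes) and values were taken to log2. No pseudocount was needed, since 0 signals were at or below 0. Gene symbols came from the platform annotation (16568 kept probes with 1 symbol, 3993 with none or several). AAV-Cre was compared with AAV-GFP by limma 3.58.1 (R 4.3.3, lmFit and eBayes, two-sided) in place of the SAM test of the study, p-values being adjusted by Benjamini-Hochberg across the kept probes. Exact permutation tests used all 924 assignments of arrays. Summaries used Python 3.11.15. The fit was tested on simulated data.

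Described in full were genes at an adjusted p under 0.05, the 6 with the lowest p, the 10 with the largest pooled SD among those detected on at least 6 arrays and those with an array beyond Dixon's limit (0.625 for 6 arrays), 24 in all. Other genes are named to account for all members. Pathway genes were named at an adjusted p under 0.25 or beyond Dixon's limit on the highest array, and further ones, like the promoters shown, were chosen after their values were seen. The members and lists were chosen with earlier results of these data known. Alternatives were normexp background correction, the authors' value table, median scaling, detection on at least 6 arrays, no detection filter, the replicate number as a block, the mean of all probes of a gene and each array left out in turn.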

Additional observations from a re-analysis of the deposited data

Results flagged for a closer look

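In each case below, 1 array lay farther from the other 5 arrays of its group than Dixon's 95% limit allows. Chance flags about 1 in 20 groups. Over all genes detected on every AAV-Cre array, 6.2% had such an array, and 5.55% of those detected on every AAV-GFP array. Among the interferon genes, AAV-Cre 1 was the high array for 12 of 32 (37.5%), against 0.899% of all genes, and 1 of 32 (3.12%) had such an array in the AAV-GFP group.

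On AAV-Cre 1 the high log2 signals were 14.86 for *Igtp* and 15.02 for *Irgm1* among the GTPases, 10.10 for *Tap1*, 10.38 for *Psmb8* and 12.64 for *Psmb10* in antigen processing, and 12.70 for the chemokine *Cxcl9*. They were 9.81 for *Irf7* and 11.33 for *Irf9* among the transcription factors, 9.94 for the sensor *Dhx58*, and 10.94 for *Ifit3*, 9.80 for *Isg15* and 14.21 for *Ifi27* among the effectors. *Oasl1* was the exception, with AAV-GFP 5 high at 9.50. Of the further pathway genes, AAV-Cre 1 was high for *Samhd1*, which degrades nucleotides, at 9.51, for *Ifitm3* at 15.74, *Trim21* at 9.50, *Apol9a* at 12.80, *Apol9b* at 12.08 and *Parp12* at 9.84, and for the class I genes *H2-K1* at 13.73, *H2-D1* at 14.40, *H2-Q6* at 10.47 and *H2-Q7* at 12.68.

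The level of AAV-Cre 1 was also beyond the limit for all interferon genes, at 0.91, and for signalling and transcription factors at 0.92, antiviral effectors at 0.78, GTPases at 1.88, antigen processing at 1.04 and chemokines at 1.55. The chemokine level rests on 2 genes, and *Cxcl10*, like *Iigp1* among the GTPases, passed the detection filter through AAV-Cre 1 alone. For these lists the filter itself favoured that array. The level of the sensors, at 0.23, was not.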

How the results depend on the processing

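Under each alternative run, 0 interferon genes were called at an adjusted p of 0.05 and 0 at 0.25, and leaving out 1 array in turn gave 0 to 0. AAV-Cre 1 had the highest level under every setting that included it, from 0.76 with the mean of all probes of a gene to 1.27 with normexp background correction. With normexp the range of array levels was 1.77 for AAV-Cre and 0.42 for AAV-GFP. Leaving out 1 array in turn, it ran from 0.32 (without AAV-Cre 1) to 1.24 for AAV-Cre and from 0.16 to 0.27 for AAV-GFP, and the median difference ran from -0.18 (without AAV-Cre 1) to 0.07.

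Differences near 0 changed sign, and the cause was not tested: with normexp *Isg15* (-0.092), *Psmb8* (-0.018) and *Tap1* (-0.12), and with median scaling *Parp14* (0.041), *Samd9l* (0.044) and *Usp18* (0.015). Leaving out 1 array in turn gave differences of -0.31 to 0.54 for *Cxcl9*, -0.84 to 0.020 for *Igtp*, -0.29 to 0.058 for *Irf1*, -0.10 to 0.18 for *Irf7*, -0.12 to 0.23 for *Irf9*, -0.17 to 0.068 for *Irgm1*, -0.59 to 0.15 for *Irgm2*, -0.19 to 0.10 for *Isg15*, -0.26 to 0.15 for *Parp14*, -0.25 to 0.0093 for *Psmb10*, -0.20 to 0.095 for *Psmb8*, -0.56 to 0.039 for *Psmb9*, -0.28 to 0.21 for *Samd9l*, -0.25 to 0.087 for *Tap1* and -0.30 to 0.16 for *Usp18*. The lowest value was without AAV-Cre 1 for each of these but *Samd9l*, where it was without AAV-Cre 3.

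With the replicate number as a block, 0 genes were called at 0.05 and 0 at 0.25, and the median difference was -0.00075. Same-numbered arrays correlated at -0.20 to 0.40 in their deviations from the group means. The medians with other numbers were -0.09 to 0.04, and 4 of 6 correlated best with their own number. The labels do not state a pairing, and these values do not settle whether the numbers pair the samples. The main limma fit and the permutation tests are unpaired, whereas the study used a paired t test for its RT-qPCR. Dim probes limit the data, since the signal includes background.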

Other observations

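Of the genes at least 1 log2 unit above every other array on AAV-Cre 1, 6 belonged to no list here: *Gm12250* at 10.51, against at most 8.38 elsewhere, *Gbp10* at 10.24 (at most 8.43), *Eif4e3* at 10.76 (at most 9.02), *Xlr4a* at 13.53 (at most 11.84), *Myom2* at 9.63 (at most 8.11) and *Cwc22* at 12.67 (at most 11.62). *Gbp10* is a guanylate-binding protein and *Eif4e3* binds the cap of messenger RNA. *Myom2* was not detected on the other 11 arrays.

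Some genes linked to inflammation peaked on another array. Of 10 acute phase genes measured, *Saa3* was highest on AAV-Cre 1, at 10.73 against at most 10.72, and others on AAV-Cre 2, AAV-Cre 5 or AAV-GFP 4. *Saa1*, an acute phase protein of the liver, had a lowest, median and highest log2 signal of 11.37, 13.76 and 16.07 on arrays labelled AAV-Cre against 11.81, 12.26 and 14.34 on AAV-GFP arrays. *Lcn2*, which binds bacterial siderophores, had 9.84, 10.48 and 12.42 against 9.03, 9.22 and 10.19, and *Socs3*, a feedback inhibitor of STAT3, 9.26, 9.84 and 11.95 against 8.68, 9.29 and 9.79. *Saa1*, *Lcn2* and *Socs3* were highest on AAV-Cre 2, whose level of the interferon genes was -0.07. Limma adjusted p-values of these were 0.638 or more.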
